A study of Mus musculus with 15 samples.

Results

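The 10 genes of the inflammasome pathway and of IL-18 signalling described here were followed across mouse bone macrophages of 3 genotypes. They were taken by gene symbol from the gene table: the sensors Nlrp3 and Nlrc4, the adaptor Pycard (also called ASC), the caspases Casp1 and Casp4, the pore former Gsdmd, the cytokine Il18, its soluble antagonist Il18bp, and the NLRP3 partners Nek7 and Txnip. All 10 of the 10 symbols were among the 16886 genes of the table, and all 10 passed the filter on low counts together with 11668 genes in all. The macrophages came from bone of wild type mice (WT), of mice with a ROBO4 knockout (ROBO4_KO) and of mice with a VLDLR knockout (VLDLR_KO), all labelled as strain C57BL6J, and every culture was kept for 14 days in M-CSF at 20 ng/ml, a growth factor on which macrophages depend. Each genotype had 5 libraries, and no inflammasome stimulus was named in the labels for any of them. The labels did not describe the knockout alleles, and they did not say whether libraries of a genotype came from separate animals or cultures, so a p-value here reflects no more than the spread between libraries, which may be technical.

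An inflammasome is a protein complex that a sensor such as NLRP3 or NLRC4 builds in the cytosol when it meets danger signals or bacterial proteins. The adaptor ASC links the sensor to caspase-1, which cuts the precursors of IL-1β and IL-18 into their active forms and cuts gasdermin D, whose released fragment opens pores in the plasma membrane. Caspase-11, the product of mouse Casp4, senses cytosolic lipopolysaccharide and also cuts gasdermin D. In macrophages the NLRP3 gene is kept low and is induced by a priming signal, whereas the IL-18 precursor is made without one. These steps act on proteins, and the values here are RNA levels of cells in bulk, in which fewer cells of a type and less RNA per cell cannot be told apart.

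The sample codes had 2 forms, with a digit before the letter B (7 libraries: WT replicates 3 to 5, ROBO4_KO replicates 1 and 2, VLDLR_KO replicates 1 and 2) or after it (8 libraries: WT replicates 1 and 2, and replicates 3 to 5 of each knockout). What the form stands for is not stated in the labels. It was a term in the model of every genotype comparison, and values within each form are given beside the results. Library totals ranged from 18132866 to 19005966 estimated counts. Of 12 macrophage markers all 12 were detected, with summed levels of 14546 to 38719 CPM (counts scaled to a common library size by TMM), while dendritic cell markers summed to at most 2.05 CPM and neutrophil markers to at most 16.3 CPM. Some of the marker sums that moved with genotype or code form are given beside those results. WT replicates 1 and 2 stood apart by immediate-early genes: Fos, an activator protein subunit induced within minutes of stimulation, was at 856 and 945 CPM there and at 12.5 to 56.1 CPM in the other 13 libraries. VLDLR_KO replicate 2 stood apart from the other VLDLR_KO libraries for Nlrc4, Pycard and Nek7, by the gap of its level to the nearest of them. The targeted genes did not check the labels, since Robo4 was at 0 to 4 counts in every library and the Vldlr counts overlapped, at 1 to 9 in VLDLR_KO, 5 to 36 in WT and 2 to 38 in ROBO4_KO.

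The bases before the transcription start are shown for some of the genes called: Il18, Nlrp3, Pycard and Txnip. Il18 was higher in both knockouts, and Nlrp3 and Pycard were higher in VLDLR_KO. Txnip differed between the code forms in WT and in ROBO4_KO but was not called by form within VLDLR_KO. The windows are the 250 bases upstream of the RefSeq start in GRCm38.p6, written 5′ to 3′ on the strand of the gene, and Nlrp3 has 2 starts in that table. They lie at chr9:50554450-50554699 (plus strand) for Il18, chr11:59541319-59541568 and chr11:59542436-59542685 (plus strand) for the upstream and the downstream start of Nlrp3, chr7:127993868-127994117 (minus strand) for Pycard and chr3:96557707-96557956 (plus strand) for Txnip. Capitals mark matches to the motifs searched on both strands, which were CACGTG (E-box), TGANTCA (AP-1), GGGA and CC with any 4 bases between them (NF-kB), GAAA and GAAA with any 2 bases between them (interferon response), GAGGAA (PU.1 core) and CACGAG and CACGAG with any 5 bases between them, a tandem that was spelled out after the Txnip window had been read. No matches overlapped in the windows shown.
Il18: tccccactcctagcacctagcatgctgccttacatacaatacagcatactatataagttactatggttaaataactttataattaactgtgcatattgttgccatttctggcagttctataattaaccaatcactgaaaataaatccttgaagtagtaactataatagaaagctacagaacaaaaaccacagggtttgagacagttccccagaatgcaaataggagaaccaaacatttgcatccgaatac
Nlrp3 upstream start: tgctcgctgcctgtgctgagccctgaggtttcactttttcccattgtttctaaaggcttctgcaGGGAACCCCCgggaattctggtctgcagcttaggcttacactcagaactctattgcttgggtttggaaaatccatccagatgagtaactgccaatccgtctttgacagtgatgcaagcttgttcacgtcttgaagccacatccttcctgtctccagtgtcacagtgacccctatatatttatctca
Nlrp3 downstream start: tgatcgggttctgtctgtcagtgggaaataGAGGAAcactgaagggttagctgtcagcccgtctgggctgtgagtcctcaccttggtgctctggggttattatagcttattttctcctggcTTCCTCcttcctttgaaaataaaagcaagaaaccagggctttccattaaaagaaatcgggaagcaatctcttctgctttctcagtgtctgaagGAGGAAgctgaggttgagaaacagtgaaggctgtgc
Pycard: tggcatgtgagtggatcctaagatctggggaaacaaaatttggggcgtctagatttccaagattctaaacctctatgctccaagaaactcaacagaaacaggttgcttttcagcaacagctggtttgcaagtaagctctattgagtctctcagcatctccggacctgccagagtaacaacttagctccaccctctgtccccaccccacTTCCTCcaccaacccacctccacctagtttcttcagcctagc
Txnip: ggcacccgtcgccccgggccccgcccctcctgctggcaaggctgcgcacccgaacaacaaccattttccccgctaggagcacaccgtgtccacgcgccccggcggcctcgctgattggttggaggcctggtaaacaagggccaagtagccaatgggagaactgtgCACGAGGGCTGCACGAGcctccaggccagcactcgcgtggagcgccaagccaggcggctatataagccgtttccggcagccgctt

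The upstream window of Nlrp3 held the NF-kB letters GGGAACCCCC, a pattern present in 17.6% of the 32851 promoter windows of the same length. The downstream window held 3 PU.1 cores. At least 1 such core was present in 23.3% of windows, and the share with 3 was not counted. Pycard held 1 PU.1 core. No searched motif was found in the Il18 window. The Txnip window held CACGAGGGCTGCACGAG at 85 to 69 bases before the start, and it was the 1 window of 32851 (0.00304%) with that tandem, which was written from this window and so had to match it. E-boxes were in 6.02% of windows, AP-1 letters in 6.75% and the interferon pattern in 2.98%. A match is a description of letters and shows no binding in these cells.

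The levels of the genes relative to each other were read on the authors' FPKM scale, which corrects for gene length. Over all 15 libraries, Txnip had a mean of 100.1 FPKM (range 56.7 to 205) and Casp1 a mean of 96.7 FPKM (82.0 to 128). Nek7 followed at 39.5 FPKM and Gsdmd at 37.1 FPKM, then Pycard at 22.9, Casp4 at 19.5 and Il18 at 15.5 FPKM. Nlrp3 at 9.71, Il18bp at 5.91 and Nlrc4 at 4.51 FPKM were the lowest 3. The ranges of Txnip and Casp1 overlapped, as did those of Nek7 (21.8 to 45.3) and Gsdmd (31.4 to 51.8). Of the neighbours in this order, Casp1 and Nek7 had ranges that did not overlap, and the ranges of each other neighbouring pair overlapped. Casp1, the enzyme that cuts the IL-18 precursor, was at a higher RNA level than either sensor in every library, with a lowest Casp1 value of 82.0 FPKM against a highest Nlrp3 value of 18.99 FPKM and a highest Nlrc4 value of 6.21 FPKM.

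**Figure D1:**
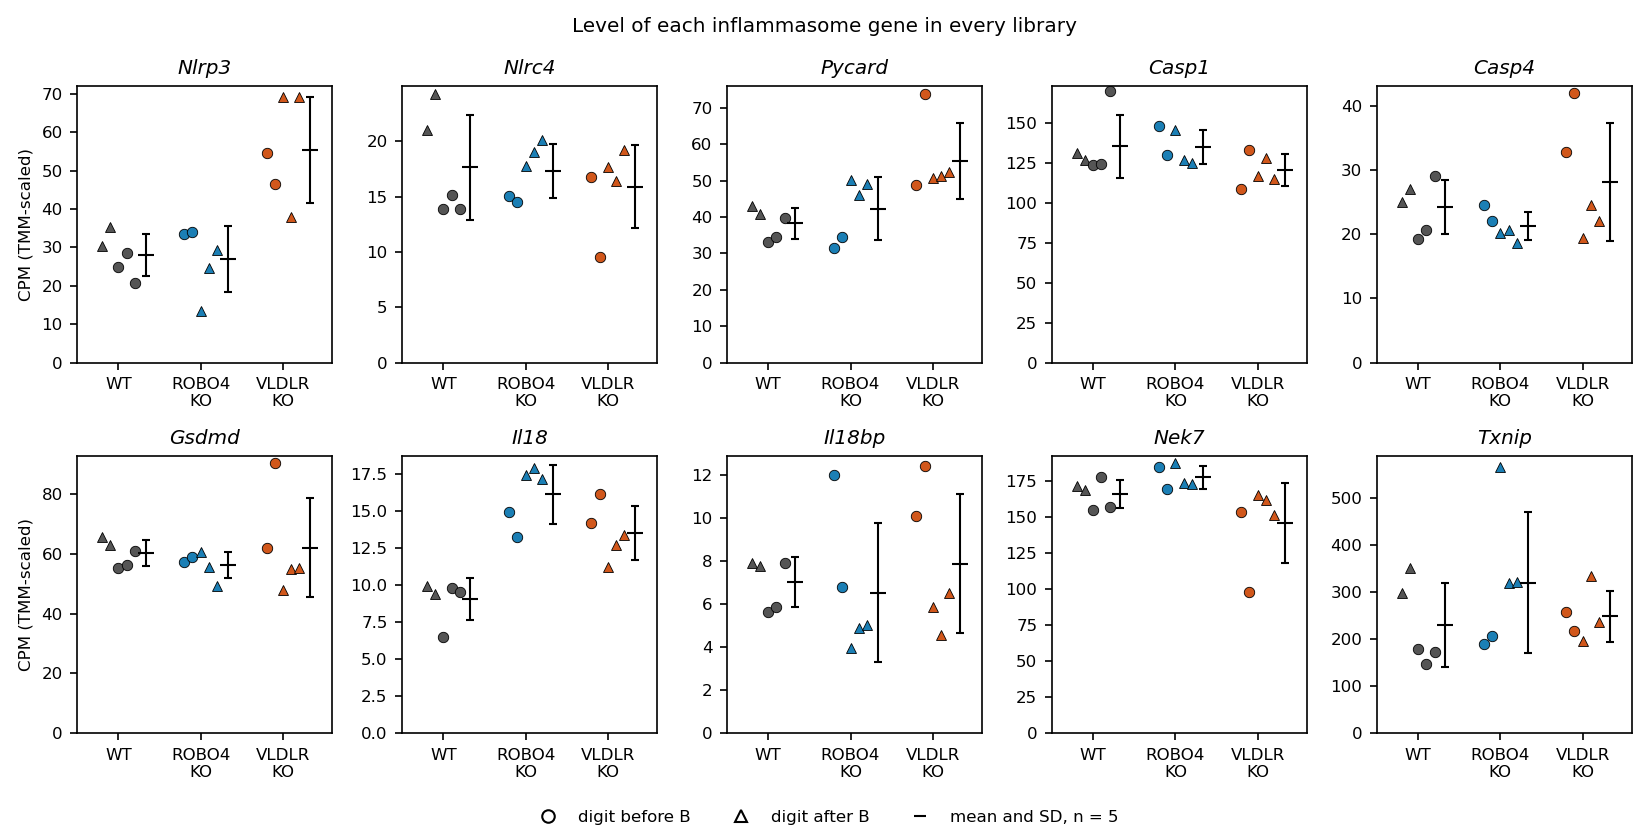
Level of each of the 10 genes in CPM (vertical axis, from 0) in every library, by genotype; circles have the digit before B in the sample code, triangles after it, and the bar gives the mean and SD of 5 libraries. Nlrp3 in VLDLR_KO (37.9 to 69.1 CPM) lies above all WT libraries (20.8 to 35.3 CPM), and Il18 in both knockouts lies above all WT libraries.

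VLDLR is the very low density lipoprotein receptor, and the libraries labelled as its knockout were compared with WT. Nlrp3, Pycard and Il18 were higher in VLDLR_KO, by 1.98-fold, 1.43-fold and 1.49-fold, and the other 7 genes did not pass the test. Of all 11668 genes tested 16.8% passed it in either direction and 7.74% were higher, and 9.43% had all 5 libraries of one genotype above or below all 5 of the other. The same 3 of 10 genes were the ones without overlap between genotypes. The median log2 fold change of the 10 was 0.12, against 0.02 over all genes tested. Marker sums moved with this comparison. The 12 macrophage markers summed to 22617 to 38719 CPM in VLDLR_KO, above all WT libraries (14546 to 21594 CPM) and highest in VLDLR_KO replicate 2, while 1 of the 12 was called higher and 3 lower. The 10 stromal markers (collagens and the like) summed to 8.80 to 41.0 CPM in VLDLR_KO, below all WT libraries (50.8 to 393 CPM), with 1 of 9 tested called lower and Lum under 1 CPM in every library. The 15 immediate-early genes summed to 705 to 1198.5 CPM in VLDLR_KO and 960 to 5052.5 CPM in WT, which overlapped. Of the 15, 7 were called lower in VLDLR_KO. The part of these sums in the values of the 10 genes was not tested.

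Nlrp3 encodes the sensor that responds to potassium loss and many other forms of cell damage. It was at 30.2, 35.3, 24.9, 28.4 and 20.8 CPM in WT replicates 1 to 5 and at 54.6, 46.4, 69.1, 37.9 and 69.1 CPM in VLDLR_KO replicates 1 to 5. The lowest VLDLR_KO library was thus above the highest WT library. The log2 fold change was 0.99 (SE 0.24, edgeR quasi-likelihood adjusted p = 0.0119). Without VLDLR_KO replicate 2 it was 1.06 (adjusted p = 0.0120), and without WT replicates 1 and 2 it was 1.29 (adjusted p = 0.0218). Within the code forms the values were 1.03 (SE 0.29, adjusted p = 0.0167) before B and 0.84 (SE 0.30, adjusted p = 0.0795) after B. The authors' deposited table, which compares libraries within each code form, gave Nlrp3 a q-value of 3.117e-05 before B and of 0.01693 after B for the same pair of genotypes.

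Pycard encodes ASC, the adaptor shared by NLRP3 and several other sensors. It was at 43.0, 40.9, 33.2, 34.6 and 39.8 CPM in WT and at 48.8, 73.9, 50.6, 51.3 and 52.5 CPM in VLDLR_KO. The groups did not overlap, and 4 of the 5 VLDLR_KO libraries lay within 48.8 to 52.5 CPM while replicate 2 was far above them. The log2 fold change was 0.51 (SE 0.14, edgeR adjusted p = 0.0234). It was 0.31 (adjusted p = 0.0321) without VLDLR_KO replicate 2, and leaving out single WT libraries ended the call for replicate 2 (adjusted p = 0.0526), replicate 3 (0.0569) and replicate 4 (0.0540), as did leaving out replicates 1 and 2 together (0.0906). Within the forms it was 0.77 (adjusted p = 0.00157) before B and 0.29 (adjusted p = 0.196) after B. The authors' q-values for Pycard in this pair were 0.00919 before B and 0.05881 after B.

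Il18 encodes the cytokine precursor that caspase-1 activates and that drives interferon gamma production by lymphocytes. It was at 9.90, 9.36, 6.50, 9.79 and 9.54 CPM in WT and at 14.2, 16.1, 11.2, 12.7 and 13.4 CPM in VLDLR_KO, with no overlap. The log2 fold change was 0.58 (SE 0.14, edgeR adjusted p = 0.0113). Without VLDLR_KO replicate 2 it was 0.47 (adjusted p = 0.0256), and leaving out WT replicates 1 and 2 gave 0.65 (adjusted p = 0.0470). Within the forms it was 0.81 (adjusted p = 0.00289) before B and 0.37 (adjusted p = 0.170) after B. The authors' q-values for Il18 in this pair were 0.02726 before B and 0.2395 after B.

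Genes at the other steps of the pathway did not pass this test. Casp1 was at 108 to 133 CPM in VLDLR_KO and 123 to 170.1 CPM in WT, a log2 difference of -0.16 (SE 0.10, adjusted p = 0.293). The second sensor Nlrc4, which answers bacterial flagellin and secretion system proteins through NAIP receptors, differed by -0.23 (SE 0.13, adjusted p = 0.244). The Nlrc4 value was -0.38 and called without VLDLR_KO replicate 1 (adjusted p = 0.0368), and -0.12 without VLDLR_KO replicate 2 (adjusted p = 0.491). Nek7, a kinase that binds NLRP3 during assembly, differed by -0.22 (SE 0.11, adjusted p = 0.184). Casp4, Gsdmd, Il18bp and Txnip differed by 0.06 to 0.23 on the log2 scale, with standard errors of 0.13 to 0.25. Without WT replicates 1 and 2, Il18bp was 0.81 higher and called (adjusted p = 0.0438) and Casp4 was at 0.56 (adjusted p = 0.0750). Without VLDLR_KO replicate 2, Casp4 was at 0.0699, Gsdmd at -0.12, Il18bp at 0.0459 and Txnip at 0.0129, none of them called. VLDLR_KO replicate 2 was the highest VLDLR_KO library for Casp4 (42.0 CPM) and Gsdmd (90.5 CPM) and the lowest for Nek7 (97.4 CPM) and Nlrc4 (9.51 CPM).

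**Figure D2:**
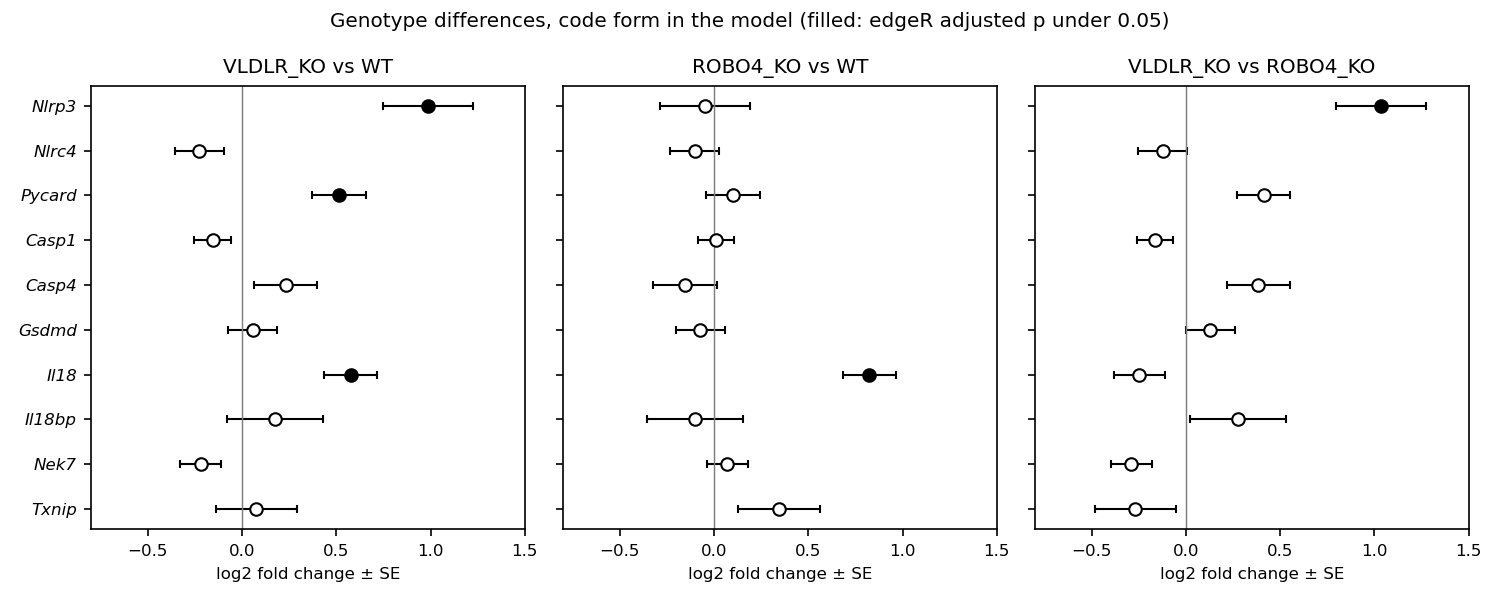
Log2 fold change with its standard error (horizontal axis) of the 10 genes in the 3 genotype comparisons, with code form in the model; filled points have an edgeR adjusted p under 0.05. Nlrp3, Pycard and Il18 are filled for VLDLR_KO against WT, Il18 alone for ROBO4_KO against WT, and Nlrp3 alone between the knockouts.

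ROBO4 is a receptor known from endothelial cells, and its knockout was compared with the same WT libraries. Il18 was the 1 gene of the 10 that passed the test, and it was 1.77-fold higher in ROBO4_KO. Over all genes 0.643% passed, 0.343% with higher levels, and 2.19% had no overlap between the genotypes. Il18 ranked 43 by p among the 11668 genes. It was at 14.9, 13.2, 17.4, 17.9 and 17.2 CPM in ROBO4_KO replicates 1 to 5, all above the highest WT library (9.90 CPM). The log2 fold change was 0.82 (SE 0.14, edgeR adjusted p = 0.00933). Within the forms it was 0.71 (SE 0.16, adjusted p = 0.126) before B and 0.86 (SE 0.17, adjusted p = 0.0186) after B, and without WT replicates 1 and 2 it was 0.90 (adjusted p = 0.0969). The call after B was lost without WT replicate 1 (0.90, adjusted p = 0.137) or WT replicate 2 (0.82, adjusted p = 0.301). With edgeR none of the 10 was called before B, where 0.343% of all genes were and 2 of the 10 had an unadjusted p under 0.05. After B only Il18 of the 10 was called, against 1.63% of all genes. The authors' deposited table gave Il18 a q-value of 0.1559 before B and 2.188e-05 after B for this pair.

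Il18 shares chromosome 9 with the targeted gene Robo4, at a gap of 13.1 Mb (Il18 at chr9:50554705-50581841, Robo4 at chr9:37401897-37414023, both in GRCm38.p6). Casp1 and Casp4, which neighbour each other at 32.1 Mb on the other side of Robo4, differed by 0.01 (SE 0.10) and -0.15 (SE 0.17) between ROBO4_KO and WT. Of the 75 genes called in this comparison 27 (36.0%) were on chromosome 9, which held 5.55% of the genes tested, and 12 were among the 216 tested genes within 20 Mb of Robo4. In VLDLR_KO against WT, where Il18 was higher as well, 6.75% of the called genes were on chromosome 9, and Vldlr itself is on chromosome 19. In that comparison 51 of the 216 tested genes within 20 Mb of Robo4 were called, against 16.8% of all genes tested. The part of chromosomal position in the Il18 result was not tested. The 2 knockouts were compared with the same WT libraries, so their Il18 values are not independent of each other.

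The remaining 9 genes did not pass the test between ROBO4_KO and WT. Nlrp3 was at 33.6, 34.0, 13.3, 24.8 and 29.3 CPM in ROBO4_KO, within and below the WT range, with a log2 difference of -0.05 (SE 0.24, adjusted p = 1). Pycard differed by 0.10 (SE 0.14). The widest difference among the 9 was that of Txnip (0.34, SE 0.22), whose ROBO4_KO libraries ran from 189 to 566 CPM.

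Between the knockouts, Nlrp3 was 2.05-fold higher in VLDLR_KO than in ROBO4_KO (log2 fold change 1.04, SE 0.24, edgeR adjusted p = 0.00913), and no other of the 10 genes passed the test, against 16.0% of all genes in either direction and 7.57% higher. All 5 VLDLR_KO libraries of Nlrp3 were above all 5 of ROBO4_KO, and all 5 VLDLR_KO libraries of Nek7 were below all 5 of ROBO4_KO, a separation seen for 8.39% of genes. Nek7 was at 184, 169, 187, 173 and 172 CPM in ROBO4_KO and at 153, 97.4, 165, 162 and 151 CPM in VLDLR_KO. The Nek7 difference was -0.29 (SE 0.11, edgeR adjusted p = 0.0825, and 0.0490 with DESeq2), and without VLDLR_KO replicate 2 it was -0.18 (adjusted p = 0.0498). Pycard was 0.41 higher on the log2 scale (SE 0.14, adjusted p = 0.0626, and 0.0362 with DESeq2). Il18 differed by -0.25 (SE 0.14, adjusted p = 0.236). Within the forms Nlrp3 differed by 0.58 (adjusted p = 0.176) before B and by 1.38 (adjusted p = 0.00396) after B. Called within a form were also Pycard (0.90), Casp4 (0.68) and Nek7 (-0.50) before B, 3 of 10 against 30.8% of all genes, and Il18 (-0.49) after B, 2 of 10 with Nlrp3 against 12.4% of all genes. Without VLDLR_KO replicate 2, the before B values were 0.56 for Pycard (adjusted p = 0.00723), 0.49 for Casp4 (adjusted p = 0.151) and -0.21 for Nek7 (adjusted p = 0.230).

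Values within the code forms showed where the VLDLR_KO difference was uneven. Before B, 6 of the 10 genes were higher in VLDLR_KO than in WT at an edgeR adjusted p under 0.05 (Nlrp3, Pycard, Casp4, Gsdmd, Il18 and Il18bp), against 17.7% of all genes higher and 33.3% in either direction. The authors' q-values before B were under 0.05 for Txnip as well (0.02388) but not for Gsdmd (0.1989). After B none of the 10 passed, against 14.2% of all genes, and 2 of the 10 (Nlrp3 and Il18) had an unadjusted p under 0.05. Without VLDLR_KO replicate 2 the 6 calls became 3 (Nlrp3, Pycard and Il18).

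The difference between the forms was itself tested. For Casp4 the log2 fold change was 0.70 before B and -0.25 after B, a difference of -0.95 (SE 0.24, edgeR adjusted p = 0.0218). Gsdmd, the pore former, went from 0.40 to -0.29, a difference of -0.69 (SE 0.20, adjusted p = 0.0340), and Il18bp, the soluble antagonist of IL-18, from 0.80 to -0.47, a difference of -1.27 (SE 0.35, adjusted p = 0.0294). Of all genes 15.2% had a called difference of this kind. Without VLDLR_KO replicate 2 the differences were -0.75 for Casp4 (adjusted p = 0.0768), -0.38 for Gsdmd (0.121) and -1.11 for Il18bp (0.0913), and none of the 3 was called without WT replicate 1, 2 or 4 either. For VLDLR_KO against ROBO4_KO, Pycard was the 1 of 10 with a called difference (-0.81, SE 0.20, adjusted p = 0.0313, against 8.97% of all genes), which fell short without VLDLR_KO replicate 2 (-0.48, adjusted p = 0.0769). For ROBO4_KO against WT none of the 10 had a called difference between the forms with edgeR, against 0.403% of all genes, and 2 had an unadjusted p under 0.05.

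**Figure D3:**
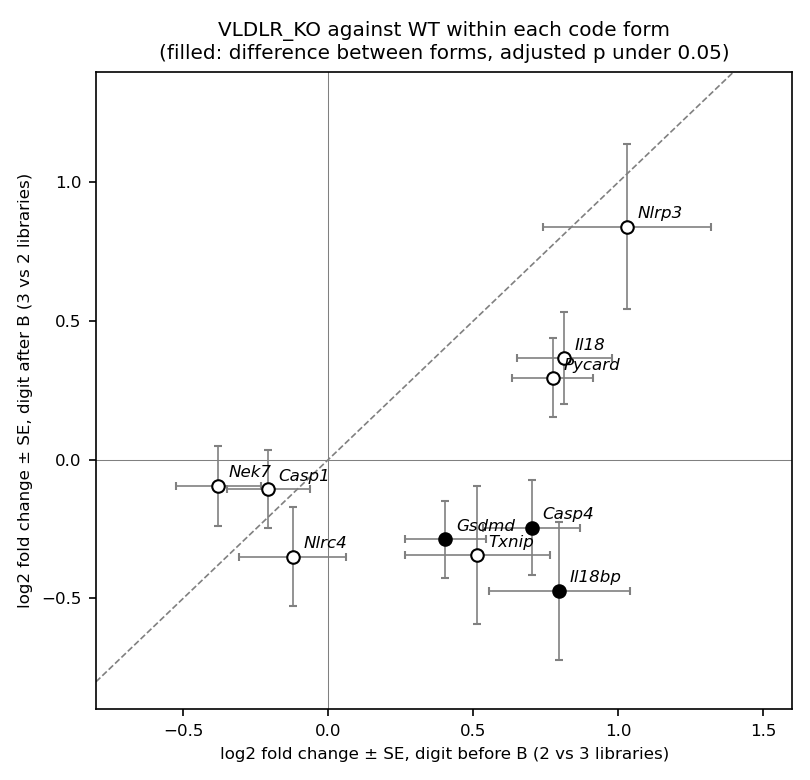
Log2 fold change of VLDLR_KO against WT with its standard error, before B on the horizontal and after B on the vertical axis; the dashed line marks equal values, and filled points have a difference between forms with an adjusted p under 0.05. Casp4, Gsdmd and Il18bp lie right of 0 and below 0, while Nlrp3, Il18 and Pycard are above 0 on both axes.

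Levels by code form were compared over all genotypes. Txnip and Nlrc4 were higher and Il18bp was lower in the libraries with the digit after B, and the other 7 genes did not pass the test, against 38.1% of all genes called. Pycard and Casp4 were called with libraries left out. Pycard was 0.32 higher after B without VLDLR_KO replicate 2 (adjusted p = 0.00411, from 0.17), and Casp4 was at -0.50 without WT replicates 1 and 2 (adjusted p = 0.0203). Several marker sums moved with the form. Endothelial markers summed to 199.9 to 258 CPM before B and 85.3 to 142 CPM after B, with 1 of 3 tested called higher, 2 lower, and Emcn, Robo4 and Tek under 1 CPM in every library. Interferon-response genes summed to 637 to 992 CPM before B and 437 to 633 CPM after B, with 12 of 18 tested called lower. Neutrophil markers summed to 0.10 to 1.43 CPM before B and 4.50 to 16.3 CPM after B, with all 5 tested called higher and Camp, Elane, Mpo and Retnlg under 1 CPM in every library. These 3 sums did not overlap between the forms. Osteoclast markers summed to 707 to 1275 CPM before B and 1257 to 2434 CPM after B, an overlap at the edge, with 5 of 6 tested called higher, 1 lower, and Calcr and Ocstamp under 1 CPM in every library. The part of these sums in the form differences of the 10 genes was not tested.

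Txnip encodes an arrestin-like protein that blocks thioredoxin and follows glucose supply, and its release from thioredoxin has been linked to NLRP3. It was at 179, 146 and 172 CPM in WT before B and at 297 and 349.8 CPM in WT after B. In ROBO4_KO it was at 189 and 206 CPM before B and at 566, 318 and 320.1 CPM after B. In VLDLR_KO the forms overlapped, with 257 and 217 CPM before B and 195, 334 and 236 CPM after B.

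The log2 difference of Txnip between the forms was 0.69 (SE 0.18, edgeR adjusted p = 0.0074), and it was 0.96 in WT, 1.02 in ROBO4_KO and 0.10 in VLDLR_KO. Without WT replicates 1 and 2 it was 0.55 (adjusted p = 0.0799). Arrdc4, the arrestin-like relative of Txnip, is no member and was looked at after its values were seen: it differed by 1.48 between the forms (adjusted p = 0.00021), and its own promoter window held an E-box but no tandem. Nlrc4 was at 13.9, 15.1 and 13.9 CPM in WT before B and at 21.0 and 24.3 CPM after B. Its log2 difference between the forms was 0.48 (SE 0.11, edgeR adjusted p = 0.00264). Within the genotypes the Nlrc4 difference was 0.66 in WT (adjusted p = 0.0258), 0.36 in ROBO4_KO (0.219) and 0.43 in VLDLR_KO (0.0682), called in WT only.

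Il18bp went the other way. It was at 12.04 and 6.78 CPM before B and at 3.94, 4.90 and 5.02 CPM after B in ROBO4_KO, and at 10.1 and 12.4 CPM before B and 5.87, 4.57 and 6.51 CPM after B in VLDLR_KO. In WT the order was not seen, with 5.62, 5.87 and 7.94 CPM before B and 7.94 and 7.76 CPM after B. The log2 difference was -0.58 (SE 0.21, edgeR adjusted p = 0.0403), and the call was lost on leaving out each of 10 of the 15 libraries in turn (adjusted p = 0.0545 to 0.114). Without WT replicates 1 and 2 it was -1.01 (adjusted p = 0.00126). Within the knockouts the difference was -1.02 (SE 0.25, adjusted p = 0.0132) in ROBO4_KO and -0.99 (SE 0.24, adjusted p = 0.00554) in VLDLR_KO, against 0.28 (adjusted p = 0.513) in WT. Of all genes 15.3% were called by form within WT, 17.0% within ROBO4_KO and 48.5% within VLDLR_KO. Casp4 (-0.76, adjusted p = 0.00292) and Gsdmd (-0.53, adjusted p = 0.00782) were lower after B within VLDLR_KO, and Pycard was higher after B within ROBO4_KO (0.56, adjusted p = 0.0190).

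**Figure D4:**
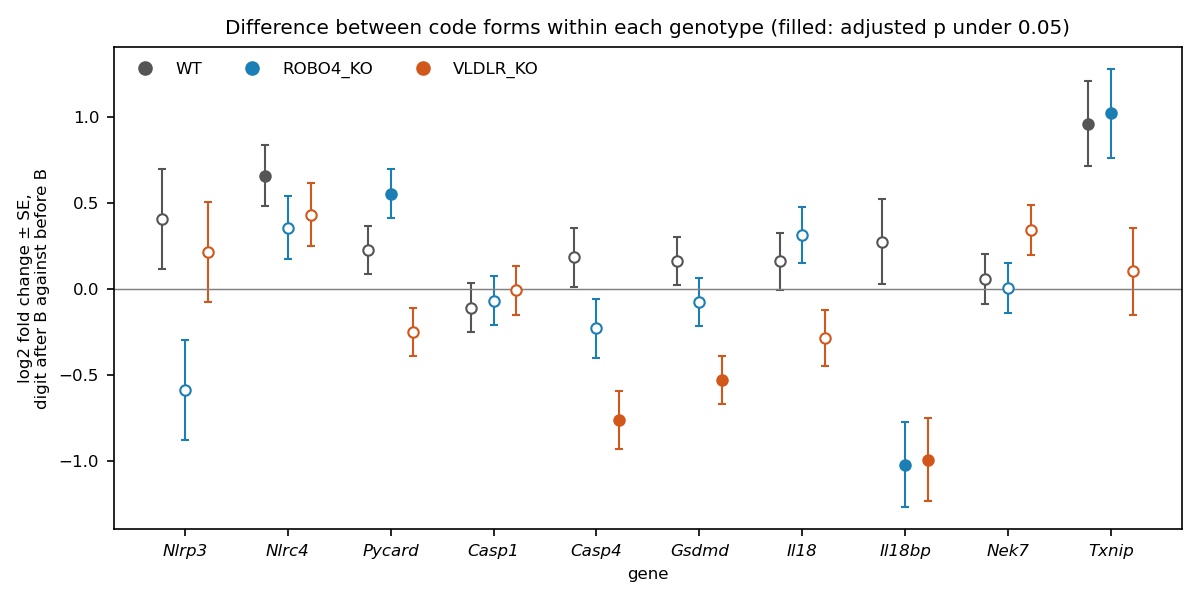
Log2 fold change between the code forms (after B against before B, vertical axis) with its standard error for the 10 genes in each genotype; filled points have an adjusted p under 0.05. Txnip is filled in WT (0.96) and ROBO4_KO (1.02) but not in VLDLR_KO (0.10), and Il18bp is filled in both knockouts.

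The transcript table split the counts of the 10 genes over 31 transcripts with counts, of which 23 passed the filter. With edgeR none of the 23 passed the test in a genotype comparison, where 3.33% (VLDLR_KO against WT), 0.110% (ROBO4_KO against WT) and 3.27% (VLDLR_KO against ROBO4_KO) of all 30096 transcripts did, and 4 of the 23 had an unadjusted p under 0.05 in VLDLR_KO against WT. By code form 2 of the 23 passed (Nlrc4 NM_001033367.3 and Txnip NM_001009935.2), against 9.13% of all transcripts. The lowest adjusted p-values between genotypes were those of the curated Nlrp3 transcript NM_145827.3 between the knockouts (log2 fold change 1.08, SE 0.28, adjusted p = 0.0560) and of the curated Il18 transcript NM_008360.1 between VLDLR_KO and WT (1.77, SE 0.47, adjusted p = 0.0636).

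The 6 Il18 transcripts were looked at after their values were seen, and what follows is a description. NM_008360.1 was estimated at 44.5, 65.5, 14.0, 62.1 and 9.20 counts in WT replicates 1 to 5, and at 111.84 to 182.02 counts in the 10 knockout libraries. Its share of the Il18 counts was 5.1% to 40.0% in WT and 38.0% to 67.2% in the knockouts, so the shares overlapped at that edge while the counts did not. The predicted transcript XM_006510024.1 was at 8.01 to 12.9 counts in all 5 WT libraries, at 0 in all 5 of ROBO4_KO, and above 0 in 2 of the 5 VLDLR_KO libraries (3.81 and 1.78 counts). XM_006510028.3, also predicted, was at 3.33 to 19.1 counts in WT and at 0 in 9 of the 10 knockout libraries, with 3.45 counts in ROBO4_KO replicate 3.

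The largest predicted transcript, XM_006510026.1, was at 71.7 to 126.5 counts in WT and at 82.8 to 190.5 counts in the knockouts, which overlapped. Between ROBO4_KO and WT, NM_008360.1 differed by 1.89 on the log2 scale (SE 0.47, adjusted p = 0.413). Transcript counts here are estimates that divide shared reads, and 2 Nlrp3 transcripts show how far they can move: XM_006532858.1 was at 116 to 853 counts in 14 libraries but at 0.49 in ROBO4_KO replicate 1, where XM_006532857.1, at 0 to 6.54 counts in 13 libraries, took 396. In VLDLR_KO replicate 5 the latter took 651 counts.

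**Figure D5:**
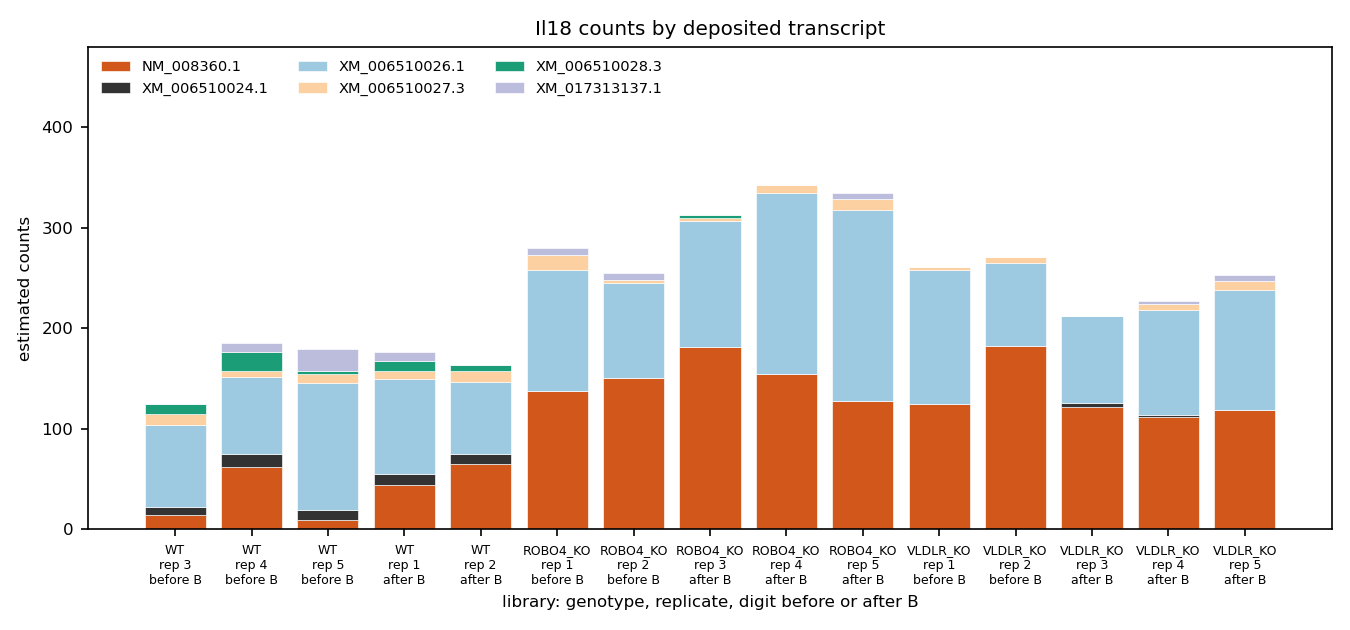
Estimated counts of Il18 (vertical axis, from 0) in each library, stacked by deposited transcript; libraries are ordered by genotype and code form. NM_008360.1 (orange) is at 9.20 to 65.5 counts in WT and at 111.84 to 182.02 counts in the knockouts, and the small predicted transcripts in black and green are seen mostly in WT.

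The other genes of the pathway were read from lists of sensors, regulators, effectors, IL-1 family genes and priming genes, 84 genes in all with 72 tested. In VLDLR_KO against WT 5 were higher and 9 lower at an edgeR adjusted p under 0.05, against 16.8% of all genes called. In ROBO4_KO against WT 1 was lower, against 0.643% of all genes. Between VLDLR_KO and ROBO4_KO 7 were higher and 6 lower, against 16.0% of all genes. These counts are near the share of all genes. Their median log2 fold change was -0.10 for VLDLR_KO against WT, -0.04 for ROBO4_KO against WT and -0.02 between the knockouts, against 0.02, 0.01 and 0.02 over all genes.

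Among regulators, 2 of 23 tested genes were higher in VLDLR_KO than in WT and 4 were lower. Pstpip1 and Ptpn22 were among the lower genes. Pstpip1, an adaptor that binds pyrin, was at 77.7 to 83.7 CPM in WT, 59.5 to 74.6 CPM in ROBO4_KO and 17.9 to 48.8 CPM in VLDLR_KO (log2 fold change against WT -1.34, SE 0.17, adjusted p = 6.4e-05). Ptpn22, a phosphatase that acts on NLRP3, was at 23.1 to 33.0 CPM in WT and at 11.5 to 17.9 CPM in VLDLR_KO (-1.05, SE 0.10, adjusted p = 5.96e-06). The groups of both genes did not overlap. Txn1, the thioredoxin that TXNIP binds, was higher in VLDLR_KO (0.60, SE 0.12, edgeR adjusted p = 0.00246). So was Panx1, named here after its values were seen (0.31, adjusted p = 0.0322). The immunity GTPase gene Irgm1 (-0.40, adjusted p = 0.0137) and the protease inhibitor gene Serpinb9 (-0.45, adjusted p = 0.0438) were lower.

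Among effectors, Gsdme, a pore former that caspase-3 cuts, was at 11.2 to 15.2 CPM in WT, 12.2 to 15.3 CPM in ROBO4_KO and 4.24 to 8.74 CPM in VLDLR_KO. The VLDLR_KO libraries were below all others, with a log2 fold change of -1.08 against WT (SE 0.13, adjusted p = 5.43e-05), whereas its relative Gsdmd did not pass the test. In the sensor list 2 of 14 tested genes were higher in VLDLR_KO than in WT and 2 were lower. The higher 2 were Nlrx1, a mitochondrial NLR protein (0.55, adjusted p = 0.00161), and Nlrc3 (0.39, adjusted p = 0.0172). Mefv, which encodes pyrin and stayed at or below 2.28 CPM in every library, was lower (-1.83, adjusted p = 0.00647). So was Nod1, named here after its values were seen (-0.50, adjusted p = 0.0470). A place in the list does not show that a protein builds an inflammasome. Aim2, the sensor of cytosolic DNA, did not pass against WT (0.06, adjusted p = 0.627) and was 0.30 higher in VLDLR_KO than in ROBO4_KO (adjusted p = 0.0187). Nlrp10 was lower in VLDLR_KO than in ROBO4_KO (-0.60, adjusted p = 0.0149). Of the priming genes, Ticam1, the adaptor TRIF of Toll-like receptors, was lower in VLDLR_KO than in WT (-0.43, SE 0.07, adjusted p = 0.000943), and Nfkb1, a subunit of NF-kB named here after its values were seen, was higher (0.24, SE 0.08, adjusted p = 0.0476). The other 14 of the 16 priming genes tested were not called between VLDLR_KO and WT. The median log2 fold change of the 16 was -0.004, against 0.02 over all genes tested.

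The IL-1 cytokines, which share caspase-1 or receptor signalling with IL-18, did not follow Il18. Il1b, whose precursor caspase-1 cuts, was at 24.0 and 32.8 CPM in WT replicates 1 and 2 and at 0.16 to 7.01 CPM in the other 13 libraries, and no genotype comparison passed the test (adjusted p = 0.221, 0.461 and 0.437). Il1a was at 16.9 and 18.2 CPM in those 2 WT libraries and at 1.97 to 3.07 CPM in the other 3, and it was lower in ROBO4_KO (-1.95, SE 0.28, adjusted p = 0.00224) and in VLDLR_KO (-1.06, SE 0.27, adjusted p = 0.0148) than in WT. These are the 2 WT libraries in which Fos was high, and their part in the Il1a result was not tested. Il1rn, the receptor antagonist, was 0.88 higher in VLDLR_KO than in ROBO4_KO (adjusted p = 0.0484) and did not pass against WT. For Il18 the same 2 WT libraries, at 9.90 and 9.36 CPM, lay beside WT replicates 4 and 5 at 9.79 and 9.54 CPM.

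The genes with the profile most like that of Il18 over the 15 libraries, by the root-mean-square difference of centred log2 CPM, were 4931414P19Rik (0.27), Osbpl2 (0.27) and Haus8 (0.27), against a median of 0.49 over all tested genes. For Nlrp3 they were Ssh2 (0.27), Clec5a (0.28) and Pcdhgb5 (0.29), against a median of 0.68. A gene with no change over the libraries would differ by 0.40 from Il18 and by 0.61 from Nlrp3. 4931414P19Rik averaged 5.39 CPM in WT, 6.41 CPM in ROBO4_KO and 6.30 CPM in VLDLR_KO, against 9.02, 16.1 and 13.5 CPM for Il18. Pcdhgb5 averaged 1.75 CPM over all libraries. Clec5a, a myeloid surface receptor, averaged 26.6 CPM in WT, 23.0 CPM in ROBO4_KO and 60.3 CPM in VLDLR_KO.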

How the data were processed

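Per the labels' protocols, total RNA was extracted with TRIzol, made into libraries with a SMARTER mRNA kit and sequenced in pairs on a BGISEQ-500. The submitters' processing notes name HISAT and Bowtie2, without versions, and the build GRCm38.p6. Which quantifier and which annotation release the authors used is not given in the sources used here. Read counts per gene and per transcript are deposited for each library, unnormalized per the file headers, and are estimated counts (expected counts) made by the authors, since 92.6% of the gene values, and not all, were whole numbers. A second set of deposited columns had no unit in its header and was read as FPKM made by the authors, because within a gene the values followed counts per library total with a median deviation of 0.338%. The authors' mean counts of 6 sets of libraries, their log2 fold changes and their q-values were read as deposited and entered no test.

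Counts were rounded to whole numbers, filtered with filterByExpr by genotype, scaled by TMM (the CPM printed use these factors) and fitted with edgeR 4.0.16 in R 4.3.3 by quasi-likelihood, with genotype and code form as terms and all 15 libraries. F tests were two-sided, and p-values were Benjamini-Hochberg adjusted over the 11668 genes or 30096 transcripts tested, with 0.05 as the threshold for a call. A model with 1 coefficient per genotype and form gave the values within forms and the differences between them. Standard errors were taken from the log2 fold change and its F value. The fit was tested on simulated data with known changes.

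The 10 genes and the lists of other genes were chosen with earlier results of these data known. The named genes are all 10 members, the other pathway genes called in a genotype comparison (at most 12, by lowest adjusted p), Il1b, Il1a, Il1rn, Aim2 and Gsdme, and the 3 nearest profiles of the gene with the lowest p in each comparison. A few features chosen after their values were seen are named as such. Alternatives were RLE scaling, no filter, no form term, a replicate block, each form alone, limma 3.58.1 on log2(FPKM + 1), DESeq2 1.42.0, each library left out, and WT replicates 1 and 2 left out together. Promoter windows came from RefSeq (GRCm38.p6), with entries for 9 of the 10 genes. The table places Pycard and Nek7 on the minus strand and the deposited table on the plus strand. A duplicate of the gene counts was left out.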

Additional observations from a re-analysis of the deposited data

Results flagged for a closer look

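In 30 groups of 5 libraries (10 genes in 3 genotypes), 5 had a library far from the others by the gap of its level to the nearest one. The cut-off is set for about 1 in 20 groups of independent, alike values. Here the genes share libraries and each group mixes both code forms, so that rate need not apply. VLDLR_KO replicate 2 was that library for 3 genes. Its Nlrc4 level was 9.51 CPM against 16.4 to 19.2 CPM in the other VLDLR_KO libraries, its Pycard level 73.9 CPM against 48.8 to 52.5 CPM, and its Nek7 level 97.4 CPM against 150.9 to 165 CPM. In WT, replicate 5 had 170.1 CPM of Casp1 against 123 to 131 CPM, and replicate 3 had 6.50 CPM of Il18 against 9.36 to 9.90 CPM.

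In 4 cases a genotype difference itself differed between the code forms by the edgeR test of that difference. For VLDLR_KO against WT the log2 fold change after B minus that before B was -0.95 for Casp4, -0.69 for Gsdmd and -1.27 for Il18bp. For VLDLR_KO against ROBO4_KO it was -0.81 for Pycard. Each of these 4 calls was lost without VLDLR_KO replicate 2, and the cause of the difference between forms was not tested.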

How the results depend on the processing

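Over the 10 genes together, log2 fold changes of the genotype and form comparisons were recomputed 920 times: 841 values kept direction and side of the threshold, 44 changed sign, 21 lost a call and 14 gained one. None of the 44 that changed sign had an adjusted p under 0.05. Medians of all genes stayed near 0 under RLE, DESeq2 and FPKM scaling. Low counts limit Il18 and Il18bp, and 2 or 3 libraries per genotype and form limit the values within forms.

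Genes called for VLDLR_KO against WT were 1957, and 1086 without the form term and 3888 before B. For ROBO4_KO against WT they were 75, and 39 without the form term, 40 before B, 190.0 after B, 172 with DESeq2 (38.4% of them higher, against 53.3%), 44 without WT replicates 1 and 2, and 55 (without WT replicate 1) to 125 (without VLDLR_KO replicate 2) with 1 library left out. Between the knockouts they were 1868, and 888 without the form term and 3591 before B. Members called were 6 before B and 0 after B for VLDLR_KO against WT. For ROBO4_KO against WT they were 0 before B and 0 without WT replicates 1 and 2. Between the knockouts they were 3 before B, 2 after B, 3 with DESeq2 and 1 to 2 with 1 library left out (2 without VLDLR_KO replicate 2).

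Other alternatives were chosen after seeing the data. With 1 library left out, members called for VLDLR_KO against WT ranged from 3 (without VLDLR_KO replicate 2) to 7 before B and from 0 to 3 after B (3 without VLDLR_KO replicate 1 or 2). For ROBO4_KO against WT after B they ranged from 0 to 1. Between the knockouts they ranged from 1 to 5 before B and from 1 to 2 after B, with 1 after B without a filter. Called differences between forms ranged from 0 to 5 (VLDLR_KO against WT) and from 0 to 6 (between the knockouts), with the highest values without VLDLR_KO replicate 1. Where 1 library was left in a genotype and form, it was assumed to vary like the others. Member transcripts called by form were 1 without a filter.

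Sign changes against WT within a form were these: after B, VLDLR_KO gave Casp4 -0.25, Gsdmd -0.29, Il18bp -0.47 and Txnip -0.34. Before B, ROBO4_KO gave Nlrp3 0.45, Nlrc4 0.0471, Pycard -0.12, Casp1 -0.00484, Casp4 0.0191, Gsdmd 0.0147 and Il18bp 0.54. Between the knockouts, Gsdmd was -0.0653 after B, and Il18 0.11 and Txnip 0.26 before B. Without WT replicates 1 and 2, ROBO4_KO gave Nlrp3 0.23, Nlrc4 0.0256, Casp1 -0.0197, Casp4 0.19, Gsdmd 0.16 and Il18bp 0.53, and the form difference of Nlrp3 was -0.19. Casp1 in ROBO4_KO was -0.00219 without the form term, and Nlrp3 by form was -0.0325 with limma. With 1 library left out, VLDLR_KO against WT ranged from -0.12 to 0.13 for Gsdmd and from -0.0823 to 0.205 for Txnip. ROBO4_KO against WT ranged from -0.16 to 0.13 for Nlrp3, from -0.0233 to 0.0950 for Casp1, from -0.11 to 0.00195 for Gsdmd and from -0.347 to 0.0617 for Il18bp. Gsdmd between the knockouts ranged from -0.0324 to 0.204, and Nlrp3 by form from -0.0701 to 0.13. For all of these the cause was not tested.

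A replicate block of code form and digit was fitted as well. Correlations of deviations gave no sign that the digits pair the samples. Of 12 same-digit pairs within a form, 4 had a correlation over 0.1 (range -0.46 to 0.34), against 14 of 25 pairs of different digits. Deviations within such small groups are tied to each other, so these values cannot exclude pairing. With the block 1141 genes were called between the knockouts, and it changed no call of the 10 genes.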
